A study of Homo sapiens with 6 samples.

Results

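BMI1 and its relatives form the ubiquitin ligase core of Polycomb repressive complex 1 (PRC1), and their RNA was followed here in A2780, a human ovarian cancer cell line, after knockdown of BMI1 or of the long non-coding RNA FAL-1. The family was taken by gene symbol: BMI1, PCGF1, PCGF2, PCGF3, PCGF5, PCGF6, RING1, RNF2, RYBP and YAF2. Of these 10 genes, 9 were measured, among 18419 genes in all, and RNF2 was not analysed here. Cells were infected with lentivirus in 6 ways: a BMI1 control, BMI1 shRNA1, BMI1 shRNA2, a FAL-1 control, FAL-1 shRNA1 and FAL-1 shRNA2. A short hairpin RNA (shRNA, here hairpin) is processed in the cell to a guide that lowers a chosen transcript. All 6 infections used the same line in medium with 10% fetal bovine serum, fresh medium replaced the virus after 24 hours, and cells were harvested for RNA at 96 hours. Each infection gave 1 array, and the labels describe no separate cultures, pools or clones. They give neither the hairpin sequences nor how the controls of the targets differ. Values are log2 summaries of a probe set, the group of array probes that reads a gene, so 1 unit is a factor of 2.

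PRC1 places ubiquitin on histone H2A, a mark tied to gene silencing. Its catalytic centre is a pair of RING finger proteins: RING1 or RNF2, which carries the ligase activity, and 1 of the PCGF proteins, which sets the kind of complex. BMI1 (also PCGF4) and PCGF2 (MEL-18) belong to canonical PRC1, which holds a CBX protein that reads histone methylation, and PHC proteins. PCGF1, PCGF3, PCGF5 and PCGF6 belong to variant complexes, which hold RYBP or its relative YAF2 in place of a CBX protein. BMI1 is best known as a repressor of the CDKN2A locus and a stem cell and cancer gene.

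The stretches of genome that precede BMI1, COMMD3 and YAF2 are printed first, because they mark the starts of BMI1 and of the readthrough transcript its probe set is annotated to, and hold a shared sequence word. The BMI1 probe set is also annotated to COMMD3-BMI1, a readthrough transcript that begins at the start of the upstream neighbour COMMD3, 4711 bases before the first BMI1 start in the table. The 250 bases before each start are given from RefSeq (GRCh38.p14), 5′ to 3′ on the gene's strand, with the letters CACGTG in capitals, a palindrome known as the E-box of MYC and MAX. The window of the first BMI1 start is at chr10:22320849-22321098 (plus strand), that of COMMD3 and COMMD3-BMI1, whose windows are identical, at chr10:22316138-22316387 (plus strand), and that of YAF2 at chr12:42238249-42238498 (minus strand). The window of a second BMI1 start is not printed.
BMI1: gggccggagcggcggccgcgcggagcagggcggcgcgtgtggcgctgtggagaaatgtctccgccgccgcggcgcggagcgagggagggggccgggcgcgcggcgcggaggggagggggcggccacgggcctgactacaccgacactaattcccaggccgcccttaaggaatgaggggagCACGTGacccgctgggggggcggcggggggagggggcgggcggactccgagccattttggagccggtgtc
COMMD3: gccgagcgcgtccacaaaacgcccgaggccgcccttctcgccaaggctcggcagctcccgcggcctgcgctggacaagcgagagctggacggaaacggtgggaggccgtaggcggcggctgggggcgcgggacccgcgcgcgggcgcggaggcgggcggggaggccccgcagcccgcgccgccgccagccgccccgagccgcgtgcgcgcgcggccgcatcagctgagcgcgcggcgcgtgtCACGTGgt
YAF2: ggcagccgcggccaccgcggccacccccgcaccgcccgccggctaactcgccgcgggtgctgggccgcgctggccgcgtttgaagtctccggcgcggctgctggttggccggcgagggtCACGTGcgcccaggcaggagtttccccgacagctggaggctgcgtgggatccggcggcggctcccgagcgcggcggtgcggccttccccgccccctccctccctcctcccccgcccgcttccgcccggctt

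CACGTG begins 70 bases before the first BMI1 start, 8 bases before the COMMD3 start and 131 bases before the YAF2 start. All 10 family members had such windows, 14 in all because BMI1 and PCGF5 have more than 1 start. Of the 14, 2 hold CACGTG, those of the first BMI1 start and of YAF2. Of 35114 windows of the same length over all genes, 6.345% hold it. The printed BMI1 window has 76.8% G and C, the COMMD3 window 80.0% and the YAF2 window 78.8%, beside a median of 58.0% over all windows. The window of the second BMI1 start has 91.6% and does not hold CACGTG. These are matches of letters, and the arrays do not show which start was used or what was bound there.

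No gene passed the test in any comparison. Of all genes, 0% were called at an adjusted p of 0.05 by limma, 0 of 18419 with BMI1 knockdown, 0 with FAL-1 knockdown and 0 for the difference between them. At an unadjusted p under 0.05 the counts were 476, 563 and 148, and 0 of the 9 measured members were among those of either knockdown. Each comparison rests on 1 control and 2 hairpin arrays, and limma estimated the spread from the 2 hairpin pairs, which leave 2 degrees of freedom. To these limma added 2.396 prior degrees of freedom, drawn from all genes. Adjusted p-values for the members were 0.9998 with BMI1 knockdown, 0.9991 with FAL-1 knockdown and 0.9999 for the difference. They measure only the spread between different hairpins against the same target, each on 1 array. That spread is pooled over both targets and drawn toward that of all genes, so every comparison carries the spread of both pairs. In that spread, differences between the hairpins and technical error cannot be told apart. In place of calls, the side of the control on which the hairpins lay is given. Over all genes, both BMI1 hairpins were above their control for 32.9% and below it for 30.7%. Both FAL-1 hairpins were above theirs for 37.2% and below for 27.7%.

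As a check of the line, KRT8 and KRT18 were the 2 of 8 ovarian and epithelial markers above the median gene, while PAX8, WT1, EPCAM, KRT19, CDH1 and MUC16 were below it on average over the arrays. The mesenchymal genes VIM and CDH2 were above it, and none of the 3 measured leukocyte and 3 measured endothelial markers were. Of the 3 fibroblast markers, COL1A1 and DCN were above it. The summed epithelial markers ranged from 56.0 in the BMI1 control to 61.8 with FAL-1 hairpin 2, and the summed fibroblast markers from 23.7 with BMI1 hairpin 1 to 26.1 in the FAL-1 control. Their part in the values of the family was not tested. In such bulk RNA, fewer cells of a type and less RNA per cell cannot be told apart.

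BMI1 was lower with both of its own hairpins, and far more so with hairpin 1. Its probe set read 10.64 in the BMI1 control, 8.73 with hairpin 1 and 9.99 with hairpin 2. In the FAL-1 set it read 10.84 in the control, 10.84 with hairpin 1 and 10.51 with hairpin 2. Both BMI1 hairpins thus lay below all 4 other arrays. From high to low the order was FAL-1 control, FAL-1 hairpin 1, BMI1 control, FAL-1 hairpin 2, BMI1 hairpin 2 and BMI1 hairpin 1. The first 2 of these read alike (hairpin minus control, -0.0013), and the controls of the 2 targets by 0.20, a difference that 26.4% of genes exceeded.

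The log2 change of BMI1 with hairpin 1 was -1.90, the 4th lowest of 18419 genes on that array, and with hairpin 2 it was -0.64, the 550th lowest. Hairpin 1 minus hairpin 2 came to -1.26, a size that 0.375% of genes exceeded. The mean change was -1.27 ± 0.89 (SD, n = 2 hairpins), with a 95% interval from limma of -2.75 to 0.20 (adjusted p = 0.9998). The spread between the hairpins is therefore large beside the mean. Only 0.076% of genes had a larger mean change in either direction. Without hairpin 1 the change was -0.64, and without hairpin 2 it was -1.90. Against the FAL-1 control the hairpins read -2.11 and -0.85.

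With FAL-1 knockdown BMI1 stood at -0.0013 with hairpin 1 and -0.33 with hairpin 2. The mean of -0.16 ± 0.23 (SD, n = 2) had a 95% interval of -1.64 to 1.31 (limma, adjusted p = 0.9991). The fit shares 1 estimate of the spread between the targets. For this gene the interval therefore also holds the wider spread of the BMI1 hairpins (SD 0.89), and its width does not describe the FAL-1 hairpins alone. Against the BMI1 control the mean was 0.040, with the hairpins at 0.20 and -0.12, so the side depended on the control array. The difference between the knockdowns, -1.11 with an interval of -3.20 to 0.98, did not pass (limma, adjusted p = 0.9999).

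**Figure D1:**
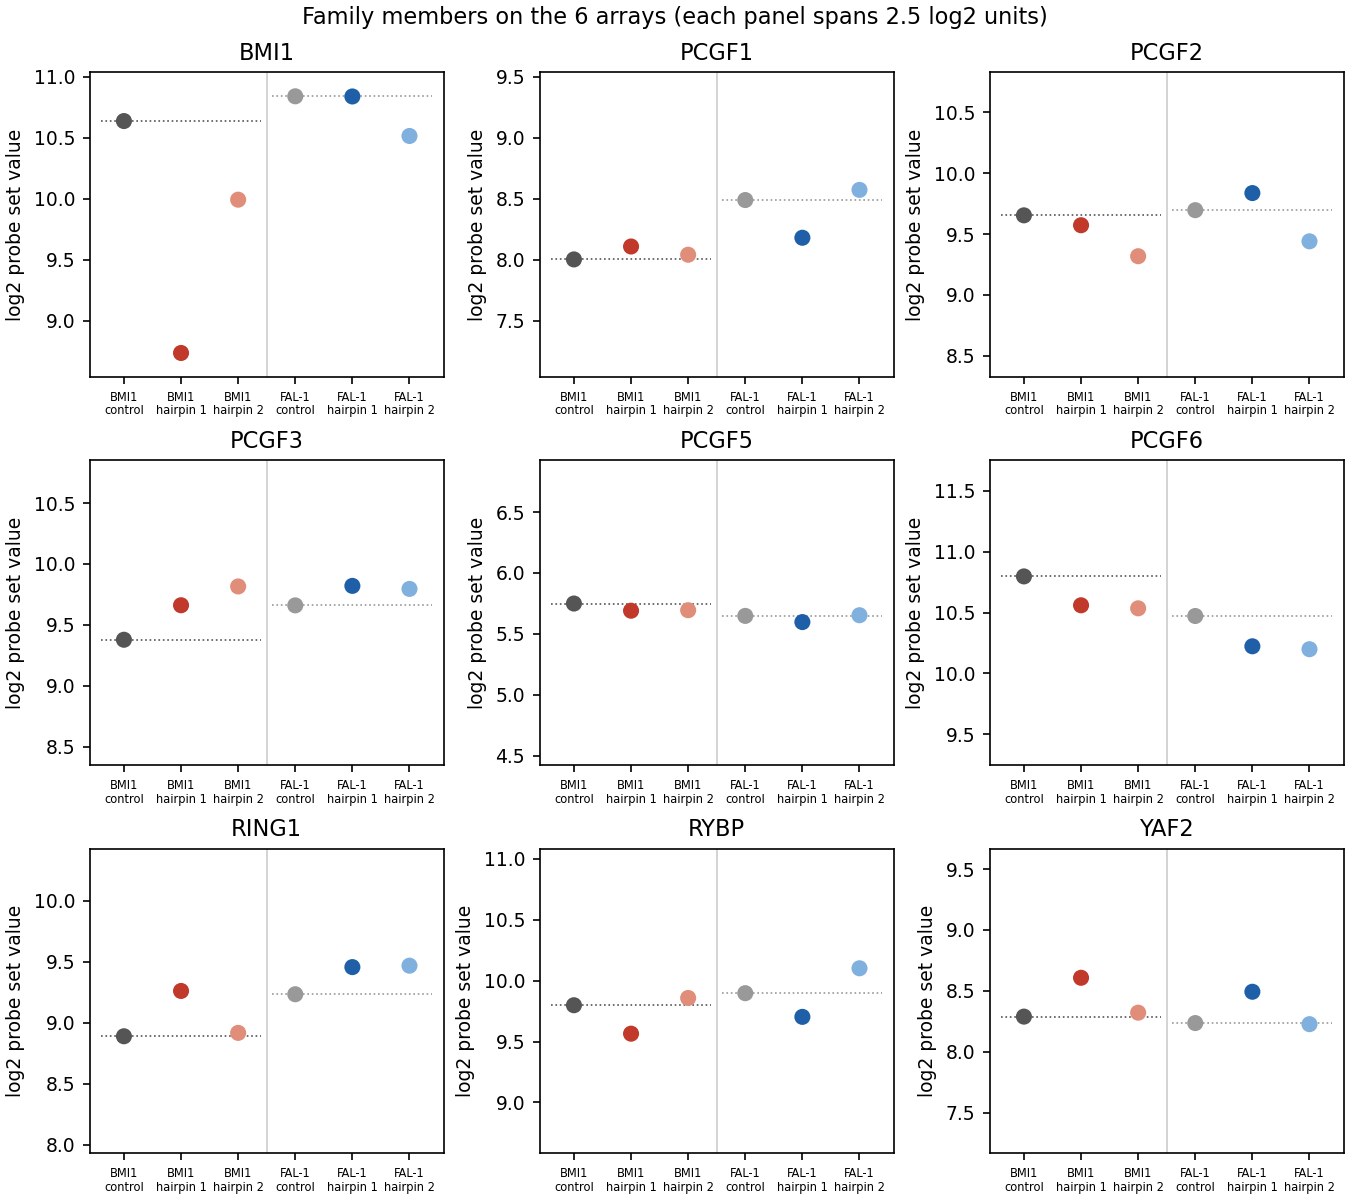
Log2 probe set values (vertical axis) of the 9 measured family members on the 6 arrays (horizontal axis), 1 point for each array, with each target's control as a dotted line. Every panel spans the same 2.5 log2 units. BMI1 is the member with a wide range, 8.73 to 10.84, while PCGF5 runs from 5.597 to 5.75.

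COMMD3, a copper metabolism domain protein gene just upstream, was not lower with the BMI1 hairpins. Its probe set, shared with the readthrough transcript, read 8.23 in the BMI1 control, 8.59 with hairpin 1 and 8.42 with hairpin 2. The FAL-1 control read 8.47, and its hairpins 8.91 and 8.42. Both BMI1 hairpins were above their control, by 0.36 and 0.19, while BMI1 itself was below. Against the FAL-1 control they read 0.12 and -0.048. How much of the BMI1 signal comes from the readthrough transcript was not measured.

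PCGF2, the closest relative of BMI1 in canonical PRC1, was not above either control array with the BMI1 hairpins. It read 9.65 in the BMI1 control, 9.57 with hairpin 1 and 9.32 with hairpin 2. The FAL-1 control read 9.70, and its hairpins 9.84 and 9.44. Both BMI1 hairpins were below their control, and the hairpin with less BMI1 had the higher PCGF2 of the pair. The mean change with BMI1 knockdown was -0.21 ± 0.18 (SD, n = 2), with a 95% interval of -0.83 to 0.41 (limma, adjusted p = 0.9998), and -0.25 against the FAL-1 control. With FAL-1 knockdown the hairpins lay on either side of the control, at 0.14 and -0.26.

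The 4 variant PCGF genes lay on different sides of their controls. PCGF3, of a variant complex that also holds AUTS2 or FBRS proteins, was above its own control with all 4 hairpins. It read 9.38 in the BMI1 control, 9.66 with hairpin 1 and 9.82 with hairpin 2. In the FAL-1 set it read 9.66 in the control and 9.82 and 9.80 with the hairpins. All 4 hairpin arrays were above both controls, although BMI1 hairpin 1 exceeded the FAL-1 control by only 0.0011.

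The change of PCGF3 was 0.36 ± 0.11 (SD, n = 2 hairpins) with BMI1 knockdown, with an interval of -0.016 to 0.74 (limma, adjusted p = 0.9998). Of all genes, 11.2% had a larger mean change. With FAL-1 knockdown it was 0.15 ± 0.018 (SD, n = 2). These sizes depended on the control: with the controls exchanged they became 0.078 and 0.43, since the control arrays themselves differed by 0.28.

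PCGF6, of the variant complex with MGA, MAX and E2F6, lay below its own control with all 4 hairpins on both of its probe sets, with near-equal changes on the brighter one only. The brighter probe set read 10.80 in the BMI1 control, 10.56 with hairpin 1 and 10.53 with hairpin 2. In the FAL-1 set it read 10.47 in the control, 10.22 with hairpin 1 and 10.20 with hairpin 2. The changes were -0.24, -0.26, -0.25 and -0.27, with means of -0.25 ± 0.018 and -0.26 ± 0.017 (SD, n = 2 hairpins each).

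A second probe set annotated to PCGF6 also read lower with each hairpin. The positions of the probes were not used here, so how far the probe sets read the same transcript is not known. It read 10.64, 10.27 and 10.09 in the BMI1 set and 10.37, 10.14 and 9.67 in the FAL-1 set. Its changes were larger or more uneven, at -0.37 and -0.55 with the BMI1 hairpins and -0.24 and -0.70 with the FAL-1 hairpins (means -0.46 and -0.47).

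The PCGF6 probe sets also differed in how they depended on the control. On the first probe set the FAL-1 control minus the BMI1 control was -0.32, larger in size than any of its changes with a hairpin, and 11.8% of genes differed more. Against the FAL-1 control the BMI1 hairpins there stood at 0.088 and 0.063, above it. On the second probe set the control difference was -0.27, and the BMI1 hairpins stayed below the FAL-1 control, at -0.10 and -0.28. Neither mean of the first probe set passed limma's test (95% intervals -0.59 to 0.087 and -0.60 to 0.076, adjusted p = 0.9998 and 0.9991).

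PCGF1, which joins BCOR and KDM2B in its complex, differed more between the controls than with any hairpin. It read 8.003 in the BMI1 control, 8.11 with hairpin 1 and 8.04 with hairpin 2. In the FAL-1 set it read 8.49, 8.18 and 8.57. The controls thus differed by 0.49, which 4.41% of genes exceeded, against changes of 0.11 and 0.039 with the BMI1 hairpins and -0.31 and 0.084 with the FAL-1 hairpins. With the controls exchanged, the BMI1 mean went from 0.072 to -0.41 and the FAL-1 mean from -0.11 to 0.37.

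PCGF5, a partner of variant PRC1 like PCGF3, hardly varied. Its lowest value was 5.597 and its highest 5.75, and 92.7% of genes had a wider range over the 6 arrays. Both BMI1 hairpins were below their control, at -0.059 and -0.055, and the FAL-1 hairpins stood at -0.051 and 0.0055. The probe set was dim, below the median gene of every array (7.498 to 7.61), and the part of this in its small range was not tested.

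RING1, one of the 2 alternative catalytic RING proteins, was above its own control with all 4 hairpins. It read 8.89 in the BMI1 control, 9.26 with hairpin 1 and 8.92 with hairpin 2. In the FAL-1 set it read 9.23 in the control and 9.46 and 9.47 with the hairpins. The BMI1 hairpins disagreed in size, at 0.37 and 0.028, whereas the FAL-1 hairpins stood together at 0.22 and 0.23. The means were 0.20 ± 0.24 and 0.23 ± 0.0083 (SD, n = 2 hairpins each), and neither passed limma's test (95% intervals -0.31 to 0.71 and -0.28 to 0.74, adjusted p = 0.9998 and 0.9991).

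A second RING1 probe set ran in parallel, at 8.62, 9.05 and 8.71 in the BMI1 set and 8.96, 9.19 and 9.22 in the FAL-1 set. Probe positions were not used here either, so how far it reads independently of the first is not known. The controls differed by 0.34 on the first probe set. Against the FAL-1 control the BMI1 hairpins read 0.027 and -0.32, so the mean turned to -0.14. The second probe set gave 0.092 and -0.26 there, with a mean of -0.082.

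RYBP and YAF2, related zinc finger proteins that take the same place in variant PRC1, differed between the hairpins of a target. RYBP read 9.80 in the BMI1 control, 9.56 with hairpin 1 and 9.86 with hairpin 2, and 9.90, 9.70 and 10.10 in the FAL-1 set. YAF2 read 8.29 in the BMI1 control, 8.61 with hairpin 1 and 8.32 with hairpin 2, and 8.24, 8.49 and 8.23 in the FAL-1 set. RYBP was thus lower than its control with the hairpin numbered 1 of each target, and YAF2 was higher there. This pairing was singled out after the values were seen.

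In numbers, RYBP stood at -0.23 and -0.19 with the hairpins numbered 1, and at 0.059 and 0.20 with those numbered 2. YAF2 stood at 0.32 and 0.26 with the hairpins numbered 1, and at 0.032 and -0.0091 with those numbered 2. Hairpins that share a number are different molecules against different targets. For RYBP, 24.0% of genes differed more between the BMI1 hairpins and 17.9% between the FAL-1 hairpins, and for YAF2 24.9% and 31.6%, so the sizes are common ones. With the FAL-1 control as reference, RYBP also read below it with BMI1 hairpin 2, at -0.039.

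**Figure D2:**
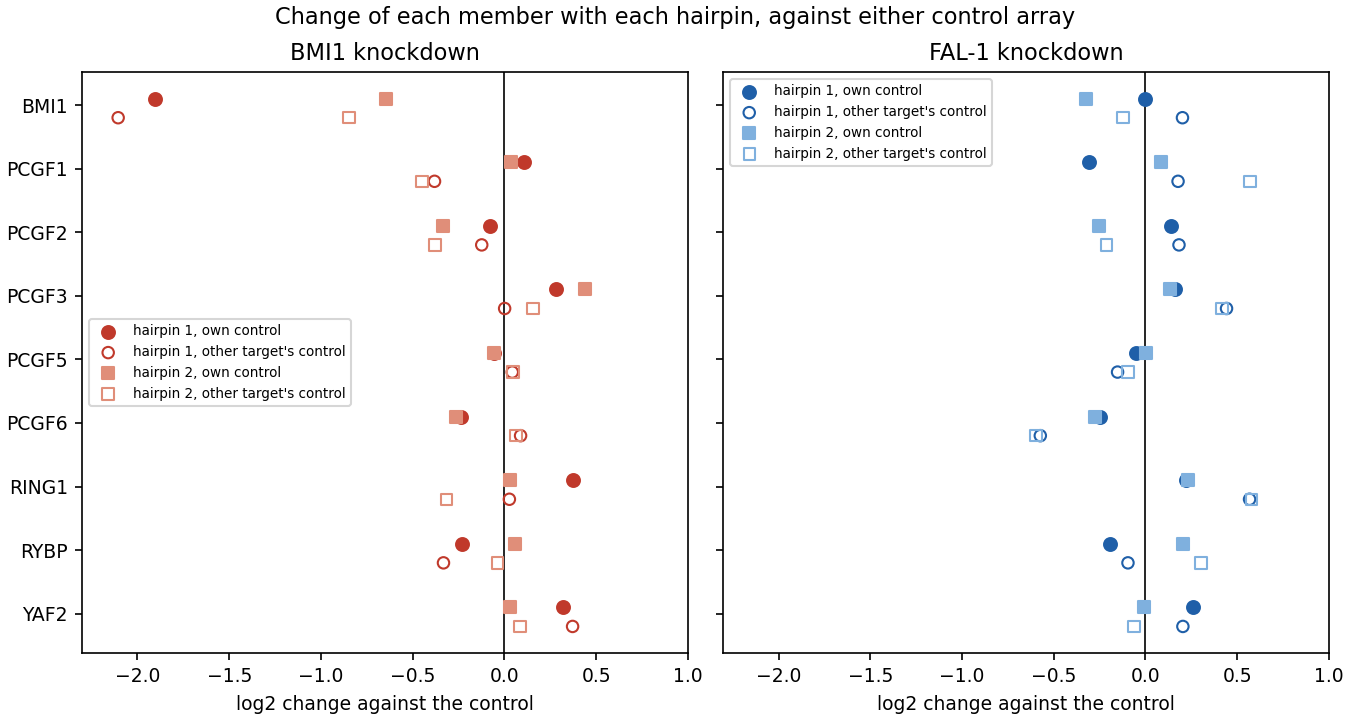
Log2 change of each member (horizontal axis) with BMI1 hairpins (left) and FAL-1 hairpins (right), circles for hairpin 1 and squares for hairpin 2. Filled marks are against the target's own control and open marks against the other target's control. BMI1 with its own hairpins stays left of zero against either control, whereas PCGF1, PCGF5, PCGF6 and RING1 with BMI1 hairpins move across zero on average when the control is exchanged.

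Over the 9 measured members, 4 were above the control with both BMI1 hairpins (PCGF1, PCGF3, RING1 and YAF2) and 4 below (BMI1, PCGF2, PCGF5 and PCGF6), beside 32.9% and 30.7% of all genes. With FAL-1 knockdown 2 were above (PCGF3 and RING1) and 2 below (BMI1 and PCGF6), beside 37.2% and 27.7%. With all 4 hairpins on 1 side of their own controls there were 2 members above, beside 17% of all genes, and 2 below, beside 14.1%. Counts this small, set beside those shares, are no result about the family. BMI1 is among the 2 below with all 4, but with FAL-1 hairpin 1 its change was only -0.0013. The median change of the 8 members other than BMI1 was 0.0077 with BMI1 knockdown and -0.0088 with FAL-1 knockdown, beside 0.0062 and 0.026 for all genes. Their 32 changes with single hairpins were 0.0055 to 0.44 in size on the probe sets used, while the second PCGF6 probe set reached -0.70. No member passed the test of the difference between knockdowns. For PCGF3 that difference was 0.21 (95% interval -0.32 to 0.74, limma, adjusted p = 0.9999), for PCGF6 0.011 (-0.46 to 0.49) and for RING1 -0.029 (-0.75 to 0.69).

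The wider Polycomb system was read from lists of genes. Counts for each list, here and below, stand beside the shares of all genes: 32.9% above and 30.7% below with BMI1 knockdown. With FAL-1 knockdown those shares were 37.2% and 27.7%. The medians of all genes were 0.0062 and 0.026. No list count was tested against these shares. Among the CBX, PHC and SCM subunits of canonical PRC1, which bind histone marks or join complexes together, 8 of 10 were measured. With BMI1 knockdown 1 was above and 3 below with both hairpins, with a list median of -0.054 and 0 past limma's test. With FAL-1 knockdown 2 were above and 2 below, with a median of -0.028, which was 0.22 with hairpin 1 alone and -0.22 with hairpin 2 alone. CBX2, a subunit that reads histone methylation, stood at -0.22 and -0.57 with the BMI1 hairpins, and at 0.0025 and -0.34 against the FAL-1 control. SCMH1 read -0.32 and -0.31 with the BMI1 hairpins (mean -0.13 against the FAL-1 control), but 0.20 and -1.05 with the FAL-1 hairpins. With the FAL-1 hairpins SCML2 read -0.35 and -0.39, and PHC3 read 0.24 and 0.36. PHC3 also read 0.36 and 0.0086 with the BMI1 hairpins, and PHC2 0.079 and 0.18 with the FAL-1 hairpins.

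Partners of variant PRC1 had 20 of 21 genes measured, with 5 above and 10 below with both BMI1 hairpins, a median of -0.13 (-0.065 and -0.078 by hairpin) and 0 past the test. With FAL-1 knockdown 7 were above and 9 below, with a median of -0.064, which by hairpin came to -0.11 and 0.0076, and with the BMI1 control as reference to 0.023. TFDP1, the partner of E2F factors, had the lowest mean with BMI1 knockdown, -0.76 ± 0.36 (SD, n = 2), and -0.48 against the FAL-1 control (limma, adjusted p = 0.9998). KDM2B, which brings the PCGF1 complex to CpG islands, read -0.38 and -0.27 with the BMI1 hairpins and -0.15 and -0.39 with the FAL-1 hairpins. L3MBTL2 and E2F6, of the PCGF6 complex, stood at 0.29 and 0.34 and at 0.28 and 0.16 with the BMI1 hairpins, but their means were only 0.11 and 0.043 against the FAL-1 control. With the FAL-1 hairpins WDR5 read -0.37 and -1.06, HDAC2 -0.23 and -0.40, BCORL1 0.36 and 0.60 and CSNK2B, a casein kinase subunit, 0.15 and 0.24. Against the BMI1 control BCORL1 turned to -0.026 and 0.22, and HDAC2 read -0.050 and -0.23.

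Enzymes and cofactors that remove ubiquitin from H2A, the opposite reaction, had 13 of 14 measured. With BMI1 knockdown 5 were above and 7 below, with a median of -0.020 (-0.00040 and -0.039 by hairpin) and 0 past limma's test, and with FAL-1 knockdown 8 were above and 3 below, with a median of 0.042. MBD5, which binds the deubiquitinase complex, was above its own control with all 4 hairpins, at 0.23 and 0.66 for BMI1 and 0.38 and 0.68 for FAL-1, and above the other control by nearly the same (means of 0.45 and 0.52). Its relative MBD6 read 0.34 and 0.19, and 0.28 and 0.15. ASXL1 read 0.22 and 0.22 with the FAL-1 hairpins. USP16 and USP21, which act on H2A, stood at -0.10 and -0.13 and at -0.088 and -0.19 with the BMI1 hairpins, where USP21 read 0.0012 and -0.10 against the FAL-1 control. FOXK1 read -0.13 and -0.14 and FOXK2 -0.17 and -0.11 with the FAL-1 hairpins, although FOXK2 turned to 0.073 and 0.13 against the BMI1 control.

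PRC2, the complex that methylates histone H3 and recruits canonical PRC1, had 13 of 13 measured. With BMI1 knockdown 3 were above and 6 below, with a median of -0.080 and 0 past the test. With FAL-1 knockdown 2 were above and 8 below, with a median of -0.14. With BMI1 hairpin 1 alone the PRC2 median was 0.10, and with hairpin 2 alone -0.14. EZH1, the alternative to EZH2 as methyltransferase, stood at 0.49 and 0.30 with the BMI1 hairpins, and at 0.22 and 0.024 against the FAL-1 control. EPOP read -0.82 and -0.36 with the BMI1 hairpins and -0.064 and -0.022 with the FAL-1 hairpins, which turned to 0.056 and 0.097 against the BMI1 control. RBBP7 read -0.21 and -0.34 with the BMI1 hairpins. RBBP4 read -0.36 and -0.57 and JARID2 0.21 and 0.40 with the FAL-1 hairpins, and JARID2 had 0.087 and 0.28 against the BMI1 control. LCOR, counted here because its locus also makes a PRC2 accessory protein, lay on opposite sides: 0.38 and 0.36 with the BMI1 hairpins, and -0.26 and -0.58 with the FAL-1 hairpins. PHF1 did so too, at -0.040 and -0.12 and at 0.52 and 0.19.

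Genes that PRC1 is known to silence had 8 of 10 measured. With BMI1 knockdown 5 were above and 0 below with both hairpins, beside 32.9% and 30.7% of all genes, with a median of 0.096. With FAL-1 knockdown 4 were above and 1 below, beside 37.2% and 27.7%, with a median of 0.055. In either knockdown 0 passed limma's test. Of the 5 above with BMI1 knockdown, CDKN2B, CDH1 and GATA4 were dim. In the BMI1 control they read 6.92, 5.80 and 6.87, below its median gene (7.58). By hairpin the medians were 0.024 and 0.16 for BMI1 and -0.043 and 0.19 for FAL-1. CDKN1A, the gene of the cell cycle inhibitor p21, listed with its values on these arrays already known, stood at 0.84 and 1.15 with BMI1 hairpins and 0.52 and 2.05 with FAL-1 hairpins. It is among the genes counted above in both knockdowns, so those counts are partly fixed by the choice of genes. CDKN2B read 0.17 and 0.39 with the BMI1 hairpins. CDKN2A, the classic BMI1 target, read 0.26 and 0.12 with BMI1 hairpins 1 and 2 and -0.097 and -0.041 with the FAL-1 hairpins. With the controls exchanged all 4 were above, at 0.15, 0.0022, 0.018 and 0.074. HOXC13 read 0.14 and 0.14 with the FAL-1 hairpins, and -0.19 and -0.20 against the BMI1 control.

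Genes of dividing cells lay below the controls beside these values: 0 of 10 were above and 10 below with both BMI1 hairpins (median -0.55), and 6 were below with both FAL-1 hairpins (median -0.57), with 0 past limma's test. TOP2A, a topoisomerase of dividing cells, read -0.68 and -0.75 with the BMI1 hairpins, where MCM2 read -0.49 and -0.78. With the FAL-1 hairpins TOP2A read -0.28 and -1.64, and CDK1 -0.19 and -1.37 (0.19 and -0.997 against the BMI1 control). The list median by hairpin was -0.32 and -0.74 for BMI1 and -0.087 and -1.16 for FAL-1, so BMI1 hairpin 1, with the lowest BMI1, had the smaller shift of its pair. The part of this shift in the values of the family was not tested.

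**Figure D3:**
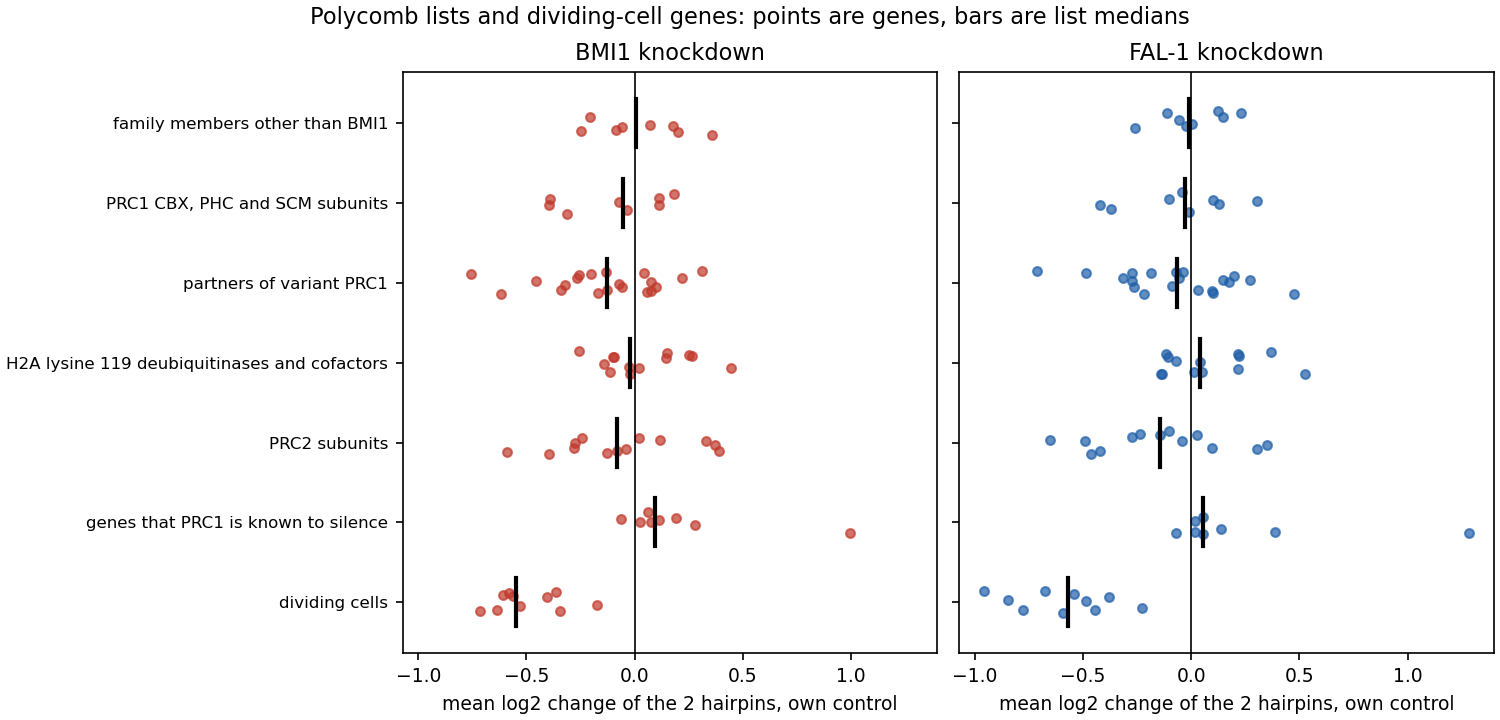
Mean log2 change of the 2 hairpins against their own control (horizontal axis) for each gene (points) of 7 groups of genes, with the median as a bar, for BMI1 (left) and FAL-1 (right) knockdown. The medians of the Polycomb groups lie between -0.14 and 0.096, and those of dividing-cell genes at -0.55 and -0.57.

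The genes whose profile over the 6 arrays was most like that of BMI1 were found by the root mean square difference after each gene was centred on its own mean. They were CCT7 (0.23 log2), ACAT2 (0.26), DBI (0.27), PCYT2 (0.28), ADI1 (0.28) and DCXR (0.28), where the median gene stood at 0.74. None is a family member. CCT7, a subunit of the cytosolic chaperonin, read 12.17 in the BMI1 control, 10.27 with hairpin 1 and 12.00 with hairpin 2, and 12.30, 12.18 and 11.84 in the FAL-1 set. Its change of -1.90 with BMI1 hairpin 1 equalled that of BMI1, but with hairpin 2 it was only -0.17. ACAT2, a thiolase, read -1.36 and -0.77 with the BMI1 hairpins. The other 4 stood between -0.97 and -1.20 with hairpin 1 and between -0.24 and -0.36 with hairpin 2. All 6 had their lowest value with BMI1 hairpin 1, as BMI1 did, a likeness that the choice of genes fixes. Among family members RYBP was nearest to BMI1, at 0.66 and rank 2523, and YAF2 farthest, at 0.84 and rank 16279. A gene that did not vary over the arrays would stand at 0.739. The members lay around that value, so being nearest marks no close likeness.

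**Figure D4:**
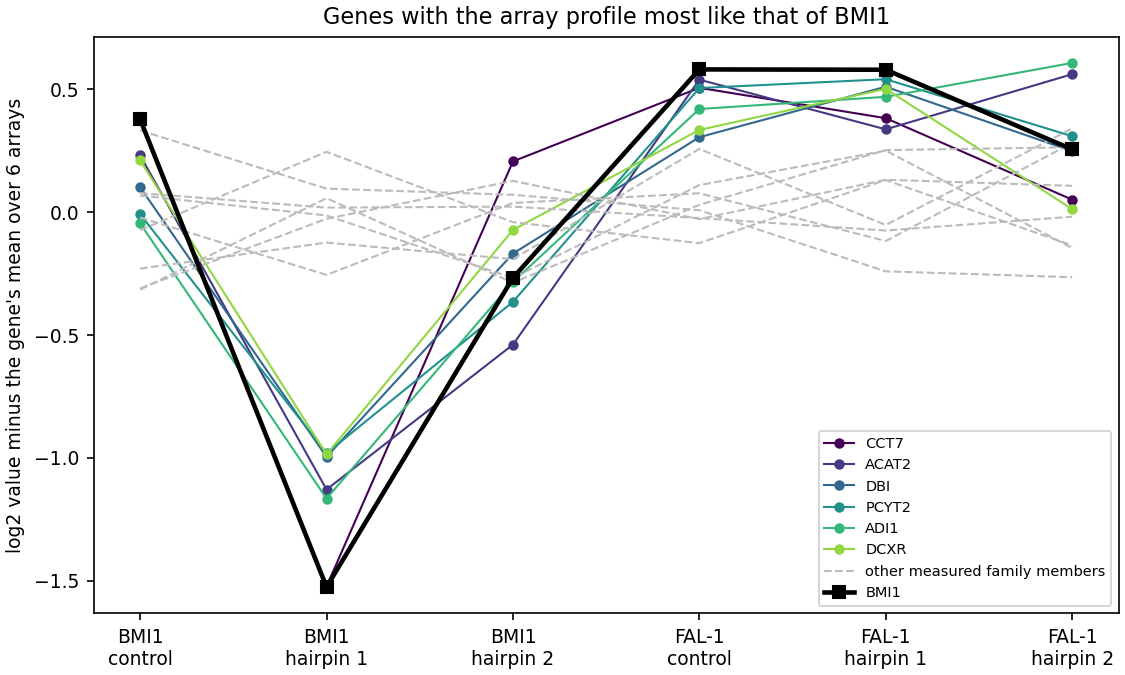
Log2 values centred on each gene's mean (vertical axis) over the 6 arrays (horizontal axis) for BMI1 (black squares), the 6 genes nearest to it (coloured) and the other 8 measured family members (dashed grey). The coloured genes, chosen for this likeness, are lowest at BMI1 hairpin 1, where BMI1 reads 8.73 and CCT7 10.27 before centring. RYBP is also lowest there (9.56), within a range over the arrays of 0.54.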

How the data were processed

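RNA from 6 infections was read on Affymetrix arrays of 1 colour, as the labels' protocols state. The authors deposited 1 table of 33252 probe sets, whose range of values is that of log2 units. RMA, named in the submitters' processing notes, corrects background, normalizes and summarises probes. Its version, its array set and a genome build were not given in the sources used here. Values at the same rank differed between arrays by up to 0.155 log2.

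Gene names came from the platform annotation: 19460 had 1 gene symbol, 1754 several and 12038 were not listed. The brightest on average stood for each of 769 genes with several, and of those with several symbols the ones for BMI1 and COMMD3 were kept. All 18419 genes entered 1 limma fit (limma 3.58.1, R 4.3.3; lmFit and eBayes, two-sided) with 4 group means, with Benjamini-Hochberg adjustment at 0.05. Contrasts were each hairpin pair against its own control, and their difference. The fit was tested on simulated data. An exact permutation test was not used, because 1 against 2 arrays cannot pass. Precision is limited by the number of arrays.

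The members and lists were chosen with earlier results of these data known. Named list genes are up to 2 per direction and target with the largest smaller-of-the-hairpin change. Profile likeness names 6 genes. Alternatives were the other control, pooled controls, quantile normalization, a filter on dim genes, averaging a gene's probe sets, a trended and robust variance prior, fewer arrays, a block for hairpin number, each hairpin left out and, added after seeing the data, the other probe set. Figures used matplotlib 3.10.9 (Python 3.11.15).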

Additional observations from a re-analysis of the deposited data

Results flagged for a closer look

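For 5 genes whose values are given above, both BMI1 hairpins lay on one side of their control and both FAL-1 hairpins on the other, as did 10.8% of all genes. These 5 come from genes named for their values, so their number is not a share to compare with 10.8%. Other list genes, such as HCFC1, MYSM1, FBRS and USP3, had the same pattern. The limma test of the difference did not pass for any (adjusted p = 0.9999). LCOR had a difference, BMI1 change minus FAL-1 change, of 0.79, and its control arrays were close, at 9.57 and 9.53. PHF1, a PRC2 accessory protein, had -0.43 (0.52 and 0.19 with the FAL-1 hairpins). CDKN2A had 0.26, with control values of 7.96 and 8.08, and USP21 had -0.18. For both the opposite sides depended on the control: with the controls exchanged CDKN2A was above with all 4 hairpins, and USP21 read 0.0012 and -0.10 with the BMI1 hairpins and -0.040 and -0.055 with the FAL-1 hairpins. ADI1, one of the genes most like BMI1, had -0.80, with -1.12 and -0.24 with the BMI1 hairpins and 0.049 and 0.19 with the FAL-1 hairpins. Because ADI1 was chosen for a profile like that of BMI1, the sign of its difference follows largely from the choice. No group held enough arrays to look for single arrays far from the others.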

How the results depend on the processing

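No member and no gene passed limma's test under any of the settings run, so the settings bear on direction and size. Of 298 alternative member values, 275 kept their sign and 23 did not. Many of the 275 could not turn. Fewer arrays, the filter on dim genes, the variance prior, the block and leaving out the other target's hairpin do not move a knockdown change. Averaging probe sets moves it only for PCGF6 and RING1. The count is therefore no measure of how stable the directions are. With the other target's control, the BMI1 knockdown change became -0.41 for PCGF1, 0.045 for PCGF5, 0.076 for PCGF6 and -0.14 for RING1, and the FAL-1 knockdown change became 0.040 for BMI1 and 0.37 for PCGF1. With both controls pooled, PCGF1 became -0.17 with BMI1 knockdown and 0.13 with FAL-1 knockdown. PCGF2, PCGF3 and YAF2 kept their side with BMI1 knockdown under all settings run (-0.34 to -0.081, 0.078 to 0.44 and 0.032 to 0.32). Leaving out 1 hairpin gave BMI1 changes of -1.90 to -0.64 with BMI1 knockdown and -0.33 to -0.0013 with FAL-1 knockdown, and differences between knockdowns of -1.74 to -0.48. It also turned the FAL-1 knockdown change of PCGF1 (-0.31 to 0.084), PCGF2 (-0.26 to 0.14), PCGF5 (-0.051 to 0.0055), RYBP (-0.19 to 0.20) and YAF2 (-0.0091 to 0.26), and the BMI1 knockdown change of RYBP (-0.23 to 0.059). The difference between knockdowns turned for PCGF1 (-0.011 to 0.38), PCGF2 (-0.35 to 0.047), PCGF6 (-0.0014 to 0.024), RING1 (-0.20 to 0.14), RYBP (-0.29 to 0.11) and YAF2 (-0.092 to 0.19). The hairpin numbers name different hairpins, so they do not pair the arrays. Deviations of same-numbered hairpins correlated at 0.275 across genes, and with the hairpin number as a replicate block 0 genes passed. The BMI1 change was -1.27 there too, which the design fixes, because each target has 1 hairpin of each number. PCGF5 did not pass the filter on dim genes. The cause of these turns was not tested. With 1 control array per target, the error of that array and a change against it cannot be told apart.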
